A study of Homo sapiens with 8 samples.

Results

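The DNA replication machinery was followed here as 45 genes, chosen by symbol, of the 17076 genes for which expression was deposited. They cover the origin recognition complex, the factors that load and activate the replicative helicase, the helicase itself, the polymerases, the sliding clamp and its loader, the single-strand binding protein, the enzymes that finish the lagging strand, 4 enzymes of deoxynucleotide supply and UHRF1. All 45 symbols were present with a value above 0 in every library, and all 45 passed the filter on low values in every comparison. RNA sequencing had been performed on 8 libraries of Huh7, a human hepatocellular carcinoma cell line, in 4 groups of 2. In siUPF1 the cells received an siRNA against UPF1, an RNA helicase best known for its part in nonsense-mediated mRNA decay, and in siControl a scrambled siRNA. In MYC-UPF1 the cells received a vector that overexpresses UPF1 with a MYC tag, and in MYC the matching control vector. MYC in these group names is the tag, not overexpression of the MYC gene. All cells were otherwise the same line, transfected with a lipid reagent. Which siRNA sequence was used and the time of harvest were not given in the sources used here, and nothing says that the 2 libraries of a group came from separate cultures, so the p-values below measure only the spread between these libraries.

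Replication starts when the origin recognition complex, with CDC6 and CDT1, loads the ring of MCM2 to MCM7 onto DNA. CDC45 and the GINS complex join that ring and turn it into the working helicase, after which polymerase alpha and its primase lay down primers and polymerases delta and epsilon extend them. PCNA is the ring that holds the polymerases on DNA, replication factor C opens and closes it, RPA coats the exposed single strand, and FEN1 and LIG1 trim and seal the lagging strand. Many of these genes are transcribed in late G1 and S phase by E2F factors, so their RNA levels are widely read as a proliferation signature, and in adult liver, where most hepatocytes rest, they are low. UHRF1, which recognises hemimethylated DNA behind the fork and recruits DNMT1, is included for its role at the fork.

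Promoter sequence was read for 39 of the 45 genes from RefSeq (table of GRCh38.p14). For the promoters printed below only, its 250 upstream bases were placed on GRCh37, the build of the files, by a unique exact match. The motif shares refer to the whole sequence read, which runs beyond these 250 bases. The motifs searched on both strands were the E2F octamers TTTCGCGC, TTTGGCGC, TTTCCCGC and TTTGCCGC, of which the first pair can overlap on opposite strands, the CCAAT box, and the cell cycle homology letters TTTGAA. An E2F octamer was present in 19 of 39 promoters (48.7%), against 5.21% of 11604 promoters of genes in the tables and 3.33% of all 27305. CCAAT was present in 23 of 39 (59%), against 36.9% and 35.7% of the same sets, and TTTGAA in 1 of 39 (2.56%), against 10.4% and 15.4%. Both an E2F octamer and CCAAT were found in 11 promoters and neither in 8. These are matches of letters, not measured binding.

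Shown here are the promoters of ORC6, the gene that fell most on depletion of UPF1, of PCNA, the clamp that the study also stained as a protein, and of MCM6, which had the most E2F matches and the steadiest RNA level of the 45. Capitals mark E2F and CCAAT letters on either strand. The ORC6 sequence covers chr16:46723321-46723570 on the plus strand of GRCh37 and holds 2 CCAAT boxes and 0 E2F octamers. In GENCODE its first part overlaps an intron-retaining transcript of VPS35 on the other strand and its last bases the start of an ORC6 transcript. The PCNA sequence covers chr20:5107269-5107518 on the minus strand and ends in the first bases of the gene model, with 1 E2F octamer and 3 CCAAT boxes. The MCM6 sequence covers chr2:136634014-136634263 on the minus strand and touches no GENCODE exon, with 4 E2F octamers, in 2 overlapping pairs, and 2 CCAAT boxes.
ORC6: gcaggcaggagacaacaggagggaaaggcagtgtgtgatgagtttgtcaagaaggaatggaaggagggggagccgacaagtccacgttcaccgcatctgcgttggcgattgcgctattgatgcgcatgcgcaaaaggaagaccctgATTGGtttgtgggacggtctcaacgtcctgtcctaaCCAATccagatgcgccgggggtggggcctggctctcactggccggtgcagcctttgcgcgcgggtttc
PCNA: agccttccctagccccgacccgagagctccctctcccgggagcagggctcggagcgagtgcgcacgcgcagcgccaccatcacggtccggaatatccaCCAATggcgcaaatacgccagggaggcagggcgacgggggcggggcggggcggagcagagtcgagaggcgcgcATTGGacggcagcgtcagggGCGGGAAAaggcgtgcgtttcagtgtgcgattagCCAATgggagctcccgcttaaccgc
MCM6: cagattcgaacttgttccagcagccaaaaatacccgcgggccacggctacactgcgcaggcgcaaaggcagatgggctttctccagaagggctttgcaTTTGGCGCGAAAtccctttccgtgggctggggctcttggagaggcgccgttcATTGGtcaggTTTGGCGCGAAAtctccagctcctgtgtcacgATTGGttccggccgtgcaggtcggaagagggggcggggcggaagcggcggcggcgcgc

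In GENCODE on GRCh37, ORC6 spans chromosome 16 from 46723555 to 46732306 and PCNA chromosome 20 from 5095599 to 5107272. The other 4 genes on which the results below turn lie on chromosome 2 from 10260825 to 10351851 (RRM2), chromosome 19 from 4903092 to 4962165 (UHRF1), chromosome 1 from 28218035 to 28241257 (RPA2) and chromosome 22 from 35796127 to 35821424 (MCM5). The RRM2 window held 3 CCAAT boxes and 0 E2F octamers, and the UHRF1 window 1 of each.

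The replication genes were well expressed. Levels are in FPKM, the number of fragments per kilobase of exon scaled to the mapped fragments of the library, so they can be compared between genes. Of the 45 genes, 40 had a mean over the 8 libraries above 6.78 FPKM, the median of the 13412 genes with a mean of at least 0.5, and the median of the 45 means was 21.3. MCM7 was the highest at a mean of 190, followed by PCNA at 122, FEN1 at 98.4, TYMS at 81.3 and MCM3 at 76.0. The lowest were ORC4 at 3.52, POLA1, the catalytic subunit of polymerase alpha, at 4.35, and GINS3 at 5.55. From lowest to highest the means spanned 53.9-fold.

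Subunits of one complex were not at one level. Within the MCM ring, whose 6 proteins assemble one of each, the highest mean was 5.91 times the lowest, and MCM7 alone held 39.5% to 41.0% of the summed FPKM of the 6 genes in the 8 libraries. The ratio of the highest to the lowest mean was 5.48 over the 6 ORC genes, 3.90 over the 4 GINS genes, 2.51 over RPA1 to RPA3 and 2.11 over the 5 RFC genes. Each gene moved far less between libraries than the genes differed from each other. In 37 of 45 the highest library was under 1.5 times the lowest, from 1.10-fold for MCM6 to 1.68-fold for ORC4.

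**Figure D1:**
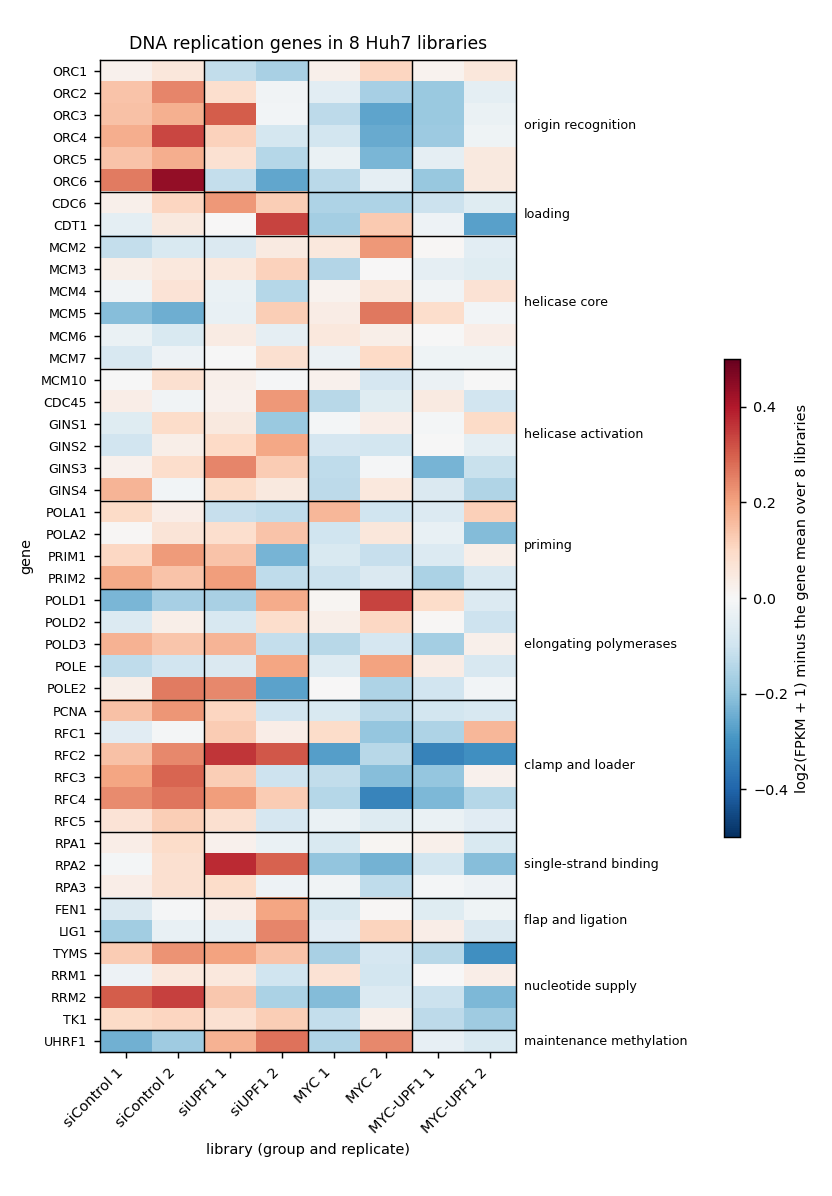
Each row is 1 of the 45 replication genes, grouped by role, and each column 1 of the 8 libraries. The colour gives log2(FPKM + 1) minus the mean of that gene over the 8 libraries, red for higher and blue for lower. ORC6 and RRM2 are highest in the siControl columns, UHRF1 is highest in the siUPF1 columns and MYC replicate 2, and the darkest cell of all is ORC6 in siControl replicate 2.

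Together the 45 genes summed to 1537 and 1606 FPKM in the siControl libraries, 1587 and 1577 in siUPF1, 1447 and 1521 in MYC and 1457 and 1445 in MYC-UPF1. As a share of all FPKM of a library this was 0.321% to 0.390%. The summed FPKM overlapped between siUPF1 and siControl and between MYC-UPF1 and MYC, while both MYC libraries lay below both siControl libraries. The shares of siUPF1, 0.3562% and 0.3905%, did not overlap with the 0.3555% and 0.3524% of siControl, although the first of them differed from a control by less than the controls differed from each other.

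The labels were checked on UPF1 itself. Its level was 45.9 ± 2.06 FPKM (SD, n = 2) in siControl and 21.3 ± 0.839 in siUPF1, a log2 fold change of -1.07 (adjusted p = 0.0308). It was 51.3 ± 8.65 in MYC and 2659 ± 248 in MYC-UPF1 (5.68, adjusted p = 8.91e-09). The cells had the RNA of a hepatocyte line: all 15 hepatocyte markers were present, with ALB at 6550 to 8371 FPKM and AFP at 11093 to 12505. Of other lineages, 3 of 6 fibroblast markers were listed, at a summed level of 1.24 to 1.90 FPKM, 1 of 3 endothelial markers at 0.535 to 0.796, and 2 of 3 cholangiocyte markers, SOX9 at 18.2 to 28.8 and CFTR at 0.0405 to 0.134. Of the immune markers reported here, PTPRC and CD3E were not listed, CD68 was at 2.95 to 3.84 and LYZ at 160 to 227. Summed FPKM per library ran from 403902 to 455592, and the read depth is unknown because FPKM values alone were used.

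The first comparison asks what depletion of UPF1 did to the replication genes. 5 of the 45 passed an unadjusted p of 0.05 in limma, the threshold the study used, and these are said below to have risen or fallen. In bulk RNA, fewer cells that express a gene and less RNA per cell cannot be told apart. ORC6 and RRM2 fell, while UHRF1, RPA2 and MCM5 rose. With 5 of 45 called (11.1%), against 21.5% of the 13535 genes tested, the share called was below that of the background. By direction, 3 rose against a background of 16%, and 2 fell against a background of 5.51%. After Benjamini-Hochberg adjustment over all genes 0 of 45 passed 0.05 (background 0.0369%) and 2, ORC6 and UHRF1, passed 0.1 (background 3.75%). The median log2 fold change of the 45 was -0.0076, beside 0.0565 over all genes tested.

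ORC6, the smallest subunit of the origin recognition complex, had the largest fall. It was at 23.0 and 26.2 FPKM in siControl and at 17.5 and 15.7 in siUPF1, so that both depleted libraries lay below both controls. The means were 24.6 ± 2.26 and 16.6 ± 1.22 (SD, n = 2), a log2 fold change of -0.54 with a standard error of 0.107 (adjusted p = 0.0821, limma). The other 5 ORC genes, which form the ring that ORC6 joins, did not pass the test, and their log2 fold changes were -0.18 for ORC1, -0.16 for ORC2, -0.02 for ORC3, -0.24 for ORC4 and -0.20 for ORC5. All 6 estimates were thus negative, with a median of -0.19, and in 5 of 6 (ORC3 being the exception) both siUPF1 libraries lay below both siControl libraries. Over all genes tested 18.5% lay without overlap on the lower side and 37.5% on the higher side, and over the 45 genes 12 and 14 did.

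Of the 2 loading factors, CDC6, the ATPase that brings the MCM ring to the origin, was at 29.2 ± 1.20 FPKM in siControl and 31.4 ± 1.47 in siUPF1, and CDT1, its partner, differed by 0.17 (log2). Neither passed the test. Among the MCM genes only MCM5 passed. MCM5 read 27.4 and 26.8 FPKM in siControl and 31.1 and 34.8 in siUPF1, with no overlap, and rose by 0.27 on the log2 scale (SE 0.0973, adjusted p = 0.186, limma). The other 5 MCM genes ranged from -0.11 for MCM4 to 0.09 for MCM7. None of the 6 helicase activators (MCM10, CDC45 and GINS1 to GINS4) was called, with log2 fold changes from -0.08 for GINS1 to 0.18 for GINS2.

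Of the 9 polymerase and primase subunits among the 45 genes 0 passed. PRIM1 and PRIM2, the primase subunits, were at -0.20 and -0.12, POLA1 at -0.19 and POLA2 at 0.08. POLD1, the catalytic subunit of polymerase delta, was at 23.8 and 24.9 FPKM in siControl and 25.0 and 32.1 in siUPF1. Both depleted libraries lay above both controls, the first by little, and the estimate was 0.21 (interval -0.09 to 0.51). For POLE2 the depleted libraries differed from each other as well, at 8.90 and 5.95 FPKM beside 7.55 and 9.03 in siControl.

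The study also followed PCNA as a proliferation marker protein, in cells and tumors that overexpressed UPF1 or parts of it, not after depletion. PCNA RNA was at 135 and 141 FPKM in siControl and 131 and 113 in siUPF1. Both depleted libraries were lower than both controls, but the first by little. The log2 fold change was -0.18 with a 95% interval from -0.43 to 0.07 (adjusted p = 0.355, limma), so the test did not call it. Its loader was not called either, with RFC3 lowest at -0.23 and RFC2 highest at 0.14.

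RPA2, the middle subunit of the single-strand binding complex, was at 38.2 and 40.7 FPKM in siControl and 50.1 and 47.5 in siUPF1. It rose by 0.30 on the log2 scale (SE 0.0928, adjusted p = 0.149, limma) without overlap, while its partners RPA1 and RPA3 were at -0.07 and -0.02 and did not pass. FEN1 and LIG1 were at 0.15 and 0.21 and did not pass.

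RRM2, the regulatory subunit of ribonucleotide reductase, was at 76.7 and 78.8 FPKM in siControl and 68.2 and 55.5 in siUPF1. The depleted libraries were both lower but differed from each other by more than the controls did. RRM2 fell by 0.33 on the log2 scale (SE 0.118, adjusted p = 0.183, limma). RRM1, the catalytic subunit of the same enzyme, was at -0.04, TYMS, which makes dTMP, at -0.0053 and TK1, which salvages thymidine, at -0.0023, and none of the 3 passed.

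Among the 45 genes UHRF1 had the largest rise with the values as deposited. It was at 15.3 and 16.1 FPKM in siControl and 20.8 and 22.3 in siUPF1, with no overlap. The means were 15.7 ± 0.519 and 21.5 ± 1.09 (SD, n = 2), a log2 fold change of 0.43 with a standard error of 0.0929 (adjusted p = 0.0876, limma).

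**Figure D2:**
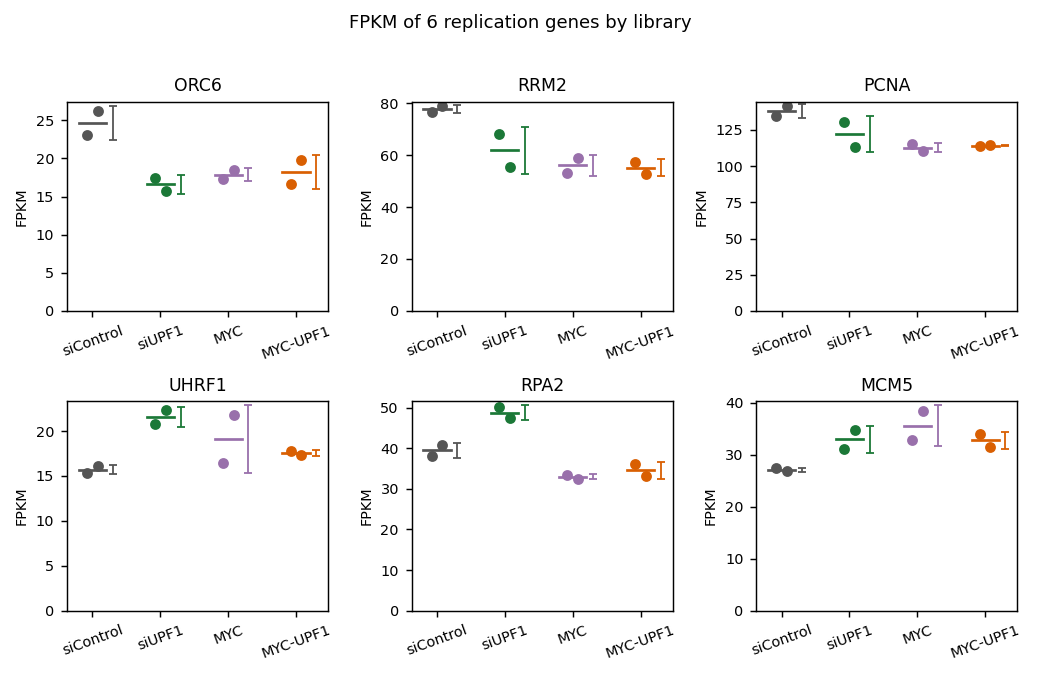
FPKM (vertical axis, from 0) of 6 replication genes in the 4 groups. Points are single libraries, the line is the group mean and the bar beside it 1 SD (n = 2). In the upper row (ORC6, RRM2, PCNA) both siUPF1 points lie below the siControl points, in the lower row (UHRF1, RPA2, MCM5) they lie above them, and the MYC and MYC-UPF1 points overlap in all 6 panels.

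The calls changed when single libraries were left out. ORC6 and UHRF1 were called whichever 1 of the 4 libraries was left out. RPA2 was lost without siControl replicate 1 or 2, and RRM2 and MCM5 without either of these or without siUPF1 replicate 2, where RRM2 was at -0.19 and MCM5 at 0.19. Without siControl replicate 1 or siControl replicate 2 the folds themselves were close to those with all 4 libraries, at 0.25 and 0.35 for RPA2, -0.35 and -0.31 for RRM2, and 0.29 and 0.26 for MCM5. The siUPF1 replicate 2 library was farther from the siControl mean than siUPF1 replicate 1 in 38 of 45 genes. This was not looked at over all genes. Without siUPF1 replicate 1 the count was 19 of 45, in a fit that called 43.7% of all genes, and without siUPF1 replicate 2 it was 3, beside 21.7%. PCNA was at -0.28 and -0.08 in these. Without siControl replicate 1 or siControl replicate 2 the count was 2, beside 10.7% and 12.6% of all genes.

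Scaling also bore on the split between rises and falls. With quantile normalization 3 replication genes rose and 8 fell, and with median centring 3 rose and 9 fell, among them ORC1, ORC2, ORC4, ORC5, POLA1 and RFC3 in both, and PCNA in the second (-0.22, adjusted p = 0.234, limma). ORC6, RRM2, UHRF1, RPA2 and MCM5 kept their calls under both. These settings called 20.9% and 21.2% of all genes.

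The second comparison asks the same of overexpression. None of the 45 replication genes passed the unadjusted threshold, against a background of 1.43% of 13251 genes, and none passed an adjusted p of 0.05, which 0.00755% did. Log2 fold changes ran from -0.16 for POLD1 to 0.13 for ORC5, with a median of -0.0047 beside -0.0142 over all genes tested. All 45 intervals included 0, and all 45 lay within 1.4-fold in either direction, 39 of them within 1.3-fold. In the depletion comparison 34 lay within the wider limit and 23 within the narrower.

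Library by library, MCM2, which carries parental histones at the fork beside its part in the ring, was at 73.2 and 82.1 FPKM in MYC and 70.9 and 68.0 in MYC-UPF1, a log2 fold change of -0.16 (interval -0.35 to 0.04). PCNA was at 115 and 110 in MYC and at 114 and 115 in MYC-UPF1, a difference of 0.02 (interval -0.15 to 0.18). The study stained PCNA protein under retroviral expression of UPF1 or parts of it, and protein was not measured here. ORC6 was at 17.3 and 18.5 in MYC and 16.6 and 19.7 in MYC-UPF1. The groups overlapped for PCNA and ORC6 and not for MCM2.

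RRM2 at 53.2 and 59.0 against 57.5 and 52.9, UHRF1 at 16.4 and 21.8 against 17.8 and 17.3, RPA2 at 33.4 and 32.5 against 36.1 and 33.1, and MCM5 at 32.8 and 38.5 against 33.9 and 31.6 FPKM overlapped as well. The MYC and MYC-UPF1 libraries did not overlap in 7 genes: CDC6, GINS2 and PRIM1 were higher (background 8.88%) and MCM2, POLD2, RFC2 and TK1 lower (background 11.8%).

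MYC replicate 2 was often at the edge of this arm. It was the highest of the 4 in 20 of the 45 genes and the lowest in 16, which was not counted over all genes. Over all genes, however, it correlated with MYC-UPF1 replicate 1 (0.997) more closely than with MYC replicate 1 (0.996) or MYC-UPF1 replicate 2 (0.994). Without MYC replicate 1, 4 genes were called, all lower (CDT1, MCM2, POLD1 and UHRF1), in a fit that called 5.85% of all genes, and when any of the other 3 libraries was left out 0 were. With a block that pairs the crossed replicate numbers, chosen after seeing the data, MCM2, POLD1 and POLD2 were called, all lower, where 9.26% of all genes were.

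**Figure D3:**
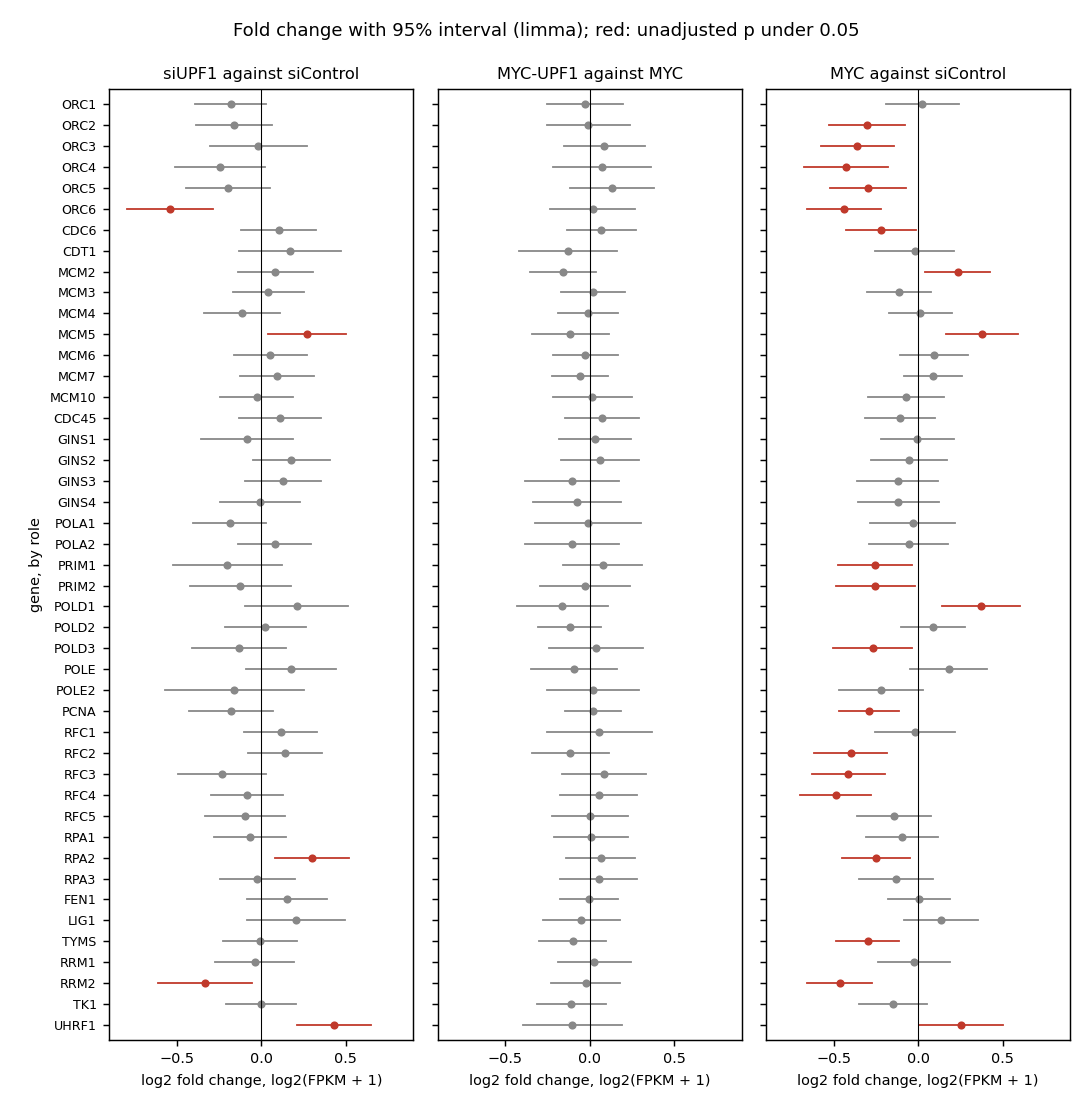
Log2 fold changes of the 45 replication genes on the log2(FPKM + 1) scale (points) with 95% limma intervals (lines), in 3 comparisons, with genes by role from top to bottom. Red marks an unadjusted p under 0.05. There are 5 red genes for siUPF1 against siControl, 0 for MYC-UPF1 against MYC and 20 for MYC against siControl.

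Whether the effects of depletion and overexpression differed was tested as a single contrast, the first log2 fold change minus the second, over 13412 genes. It called 3 of the 45 genes (6.67%), against a background of 15.2%. ORC6 differed by -0.56 (adjusted p = 0.198, limma), being at -0.54 on depletion and 0.02 on overexpression. UHRF1 differed by 0.53 (adjusted p = 0.225, limma), from 0.43 and -0.10, and MCM5 by 0.39 (adjusted p = 0.262, limma), from 0.27 and -0.11. Of RRM2 and RPA2, called on depletion and not on overexpression, the difference itself did not pass (-0.31, adjusted p = 0.369, and 0.23, adjusted p = 0.386, limma). With quantile normalization or median centring this contrast called 7 genes, 2 positive and 5 negative, beside 14.4% and 14% of all genes. The call of MCM5 was lost without any of siControl replicate 1, siControl replicate 2, siUPF1 replicate 2, MYC replicate 2 or MYC-UPF1 replicate 2. Without siUPF1 replicate 1 the count was 15 (25.2% of all genes), and without MYC replicate 1 it was 8 (19.4%).

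The third comparison sets the 2 control groups side by side, MYC and siControl, which carry no change of UPF1 by design. These groups differ in nucleic acid, in whatever else set the experiments apart, and in the table they were deposited in, and these cannot be told apart. The comparison shares siControl with the depletion comparison and MYC with the overexpression comparison, so its values are given for themselves. It called 20 of 45 genes: 4 rose against a background of 15.4% and 16 fell against a background of 25.6%. Of the 20, 13 passed an adjusted p of 0.05, which 29.1% of the 13359 genes tested did. The median was -0.11 for the 45 and -0.06 for all genes. With median centring the split was 9 higher and 11 lower, and with the trend on GC content and length removed 5 and 10. These settings called 40.8% and 38.8% of all genes. CDT1, MCM3, MCM6, GINS1, RRM1 and TK1 were called with that trend removed and not with the values as deposited.

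RFC4, a subunit of the clamp loader, was at 35.0 and 35.7 FPKM in siControl and 26.6 and 23.3 in MYC, the largest fall (-0.49, SE 0.102, adjusted p = 0.0017, limma). RFC2 (-0.40) and RFC3 (-0.41) of the same loader fell too, while RFC1 and RFC5 were at -0.02 and -0.14 and did not pass. PCNA fell by 0.29 on the log2 scale (adjusted p = 0.0155, limma), from 135 and 141 to 115 and 110 FPKM. With the GC and length trend removed, PCNA was at -0.07 and RFC3 at -0.10 and both lost their calls, while RFC4 at -0.28 and RFC2 at -0.33 kept theirs.

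RRM2 fell by 0.46 on the log2 scale (SE 0.093, adjusted p = 0.00122, limma) from 76.7 and 78.8 to 53.2 and 59.0 FPKM. TYMS fell from 88.1 and 94.5 to 72.0 and 76.0 FPKM (-0.30, adjusted p = 0.0176, limma). RRM1 (-0.02) and TK1 (-0.15) did not pass. No library of MYC reached a siControl library for RRM2 or TYMS, and with the trend removed both kept their calls, at -0.36 and -0.16.

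In the origin recognition complex 5 of 6 genes fell, beside 25.6% of all genes tested in this comparison. ORC6 was at 23.0 and 26.2 FPKM in siControl and 17.3 and 18.5 in MYC (-0.44, adjusted p = 0.00468, limma). ORC4 was at -0.43, ORC3 at -0.36, ORC2 at -0.30 and ORC5 at -0.30, all 4 with an adjusted p below 0.05, and ORC1 at 0.03 was the exception. With the GC and length trend removed, ORC4 (-0.20) and ORC6 (-0.29) kept their calls and ORC2 (-0.08), ORC3 (-0.08) and ORC5 (-0.03) lost them.

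Of the helicase genes 2 of 6 rose, beside 15.4% of all genes tested in this comparison. MCM5 rose from 27.4 and 26.8 to 32.8 and 38.5 FPKM (0.38, adjusted p = 0.0102, limma) and MCM2 from 64.8 and 66.8 to 73.2 and 82.1 (0.23, adjusted p = 0.063, limma). POLD1 rose from 23.8 and 24.9 to 28.3 and 35.7 FPKM (0.37, adjusted p = 0.0172, limma). UHRF1 rose from 15.3 and 16.1 to 16.4 and 21.8 FPKM (0.25, adjusted p = 0.117, limma), and without MYC replicate 2 it was at 0.06. All 4 rises were larger without MYC replicate 1, and without MYC replicate 2 only MCM5 among them was called. The remaining falls that passed were PRIM1, PRIM2, POLD3, RPA2 and CDC6, between -0.22 and -0.27. With the trend removed MCM5 (0.21), MCM2 (0.11) and CDC6 (-0.12) kept their calls, and POLD1 (0.09), UHRF1 (0.15), PRIM1 (-0.03), PRIM2 (0.11), POLD3 (-0.09) and RPA2 (-0.07) lost them. Without siControl replicate 1 the count of called genes was 11 (24.8% of all genes), and without siControl replicate 2 it was 7 (23.5%).

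GC content of the transcript ran beside the direction of change in each comparison. It was computed on the longest GENCODE transcript, and ranged from 35.2% for PRIM2 to 64.3% for CDT1. On depletion, 13 of the 15 replication genes at 50% GC or above had a positive estimate (median 0.14) and 7 of the 30 below it (median -0.08). On overexpression 2 of 15 (median -0.10) and 20 of 30 (median 0.02) were positive, and between the control groups 10 of 15 (median 0.09) and 2 of 30 (median -0.22).

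Across the 45 genes, Pearson's r of fold change with GC was 0.55 on depletion, -0.71 on overexpression and 0.60 between controls. Spearman's rho was 0.62, -0.66 and 0.52 in the same order, beside 0.54, -0.43 and 0.57 over 12833, 12590 and 12683 genes. The 45 points share their libraries and the comparisons share groups, so these are descriptions. With the trend of fold change on GC content and length over all genes removed, 9 replication genes were called on depletion, 3 higher and 6 lower, beside 22.7% of all genes. ORC6, RRM2, UHRF1 and RPA2 stayed among them, and MCM5, a transcript of 57.0% GC, was at 0.08 (adjusted p = 0.47, limma) and lost its call. ORC1, MCM4, POLD2, RFC1 and TK1 were called in that fit and not with the values as deposited. UHRF1 was then at 0.28, below RPA2 at 0.31. On overexpression 0 replication genes were called with the trend removed, and for the difference of effects 8 were, beside 2.98% and 15.9% of all genes.

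Promoter letters were set beside the fold changes as a description. On depletion the 19 genes with an E2F octamer ranged from -0.23 to 0.43 with a median of 0.08, and 1 of them rose (UHRF1) and 0 fell. The 20 without one ranged from -0.54 to 0.21 with a median of -0.08, and 2 fell (ORC6 and RRM2, with CCAAT boxes and no octamer). Over all genes tested 16% rose and 5.51% fell, with a median of 0.0565. RPA2 and MCM5 were among the 6 genes not matched, with RPA3, MCM4, GINS4 and POLD3. On overexpression the medians were -0.03 and 0.01.

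Other genes of the pathway were followed in a list of 43 further replication factors, all tested. On depletion 3 rose against a background of 16% and 4 fell against a background of 5.51%. The median was 0.06, beside 0.0565 over all genes tested. POLD4, the smallest subunit of polymerase delta, rose from 10.3 and 11.0 to 17.2 and 18.5 FPKM (0.69, SE 0.0946, adjusted p = 0.0584, limma). ASF1B rose by 0.36 on the log2 scale while ASF1A fell by 0.52, both histone chaperones of the H3-H4 dimer. DTYMK, the thymidylate kinase, rose by 0.31, and DONSON and DBF4, the latter the activator of the CDC7 kinase, fell by 0.34 and by 0.29.

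On overexpression 0 of the 43 passed (background 1.43%), with log2 fold changes from -0.13 to 0.14. Between MYC and siControl 4 of the 43 rose (background 15.4%) and 16 fell (background 25.6%). The median was -0.16, beside -0.06 over all genes tested. The largest falls were FAM111B (-0.64), PCLAF, a PCNA-binding factor (-0.64), and DCK, deoxycytidine kinase (-0.59). The largest rises were CHTF18 (0.36), TICRR (0.34) and RECQL4 (0.26).

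In a list of 27 E2F, RB family and G1/S regulators, all tested, 2 rose (background 16%) and 2 fell (background 5.51%) on depletion. The median was -0.10, beside 0.0565 over all genes tested. E2F2 rose from 2.31 and 2.25 to 2.99 and 3.36 FPKM (0.35, adjusted p = 0.134, limma), and CCNE1, cyclin E1, rose by 0.32 on the log2 scale. CCNA2, cyclin A2, and TFDP1, the E2F partner DP1, fell by 0.29 and by 0.25. None passed on overexpression (range -0.11 to 0.08, background 1.43%). Between MYC and siControl 1 rose (background 15.4%), TFDP2 (0.33), and 10 fell (background 25.6%), led by RB1 (-0.60), RBL1 (-0.50) and LIN54 (-0.38).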

How the data were processed

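RNA from 8 Huh7 libraries was sequenced as stranded mRNA libraries with paired ends. The authors aligned trimmed reads to hg19 (HISAT2 2.1.0) with NCBI annotation and assembled and quantified them with StringTie 1.3.4d (submitters' processing notes), and deposited gene-level FPKM, 1 column a library and 1 table for each arm. The FPKM values deposited per library and in the tables were the same (0 differences). The files hold 17076 genes, all above 0 in every library. Low values were not whole multiples of a common step (0.91% of 1869 low genes at the commonest ratio), so reads were not recovered and no count test was run.

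Values were analysed as log2(FPKM + 1) for genes with a mean of at least 0.5 FPKM in the libraries compared. Fold changes understate the change of low genes on this scale. Each comparison was fitted over all genes with limma 3.58.1 (lmFit, eBayes with trend) in R 4.3.3, and p-values were adjusted by Benjamini-Hochberg over all genes tested. The difference of effects used all 8 libraries. Called means an unadjusted p under 0.05, two-sided. An exact permutation test of 2 against 2 libraries cannot go below 0.333, so none is given. The 45 genes, the other lists and the alternatives were chosen with earlier results of these data known. Within them, full statistics were given by rule: up to 5 largest rises and falls per comparison among genes called without overlap, genes past an adjusted p of 0.05 or 0.1, PCNA, UPF1, and the 3 largest rises and falls of each further list. Gene positions and GC content came from GENCODE on GRCh37. Sequences of 6 genes were not matched and not used here. Alternatives tried were another pseudocount (0.1), no minimum or a minimum of 5 FPKM, quantile normalization, median centring, a fit over all libraries, a replicate block, eBayes without trend, removal of the GC and length trend, and leaving out each library. One immune marker is not reported here.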

Additional observations from a re-analysis of the deposited data

Results flagged for a closer look

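The effects of depletion and overexpression differed by the test of the difference itself, at an unadjusted p under 0.05, in 3 of the 45 replication genes. This was 6.67% of them, beside 15.2% of the 13412 genes tested. The depletion effect minus the overexpression effect was -0.56 for ORC6, 0.53 for UHRF1 and 0.39 for MCM5 on the log2 scale, with adjusted p-values of 0.198, 0.225 and 0.262 (limma), so none passed after adjustment. With the GC and length trend removed the difference for MCM5 was 0.14 and was no longer called, while ORC6 and UHRF1 kept their calls. Groups of 2 libraries are too small for the test of single outlying samples.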

How the results depend on the processing

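When a library was left out, the share called over all genes changed as well. In each comparison, the left-out fit with the highest share had the highest count of replication genes, and that with the lowest share the lowest. With all libraries kept, the share on depletion was 21.5% as deposited. It was 20.9% with quantile normalization, 21.2% with median centring and 22.7% with the GC and length trend removed. For the difference of effects it was 15.2%, 14.4%, 14% and 15.9% in the same order. With the alternatives below, the count of replication genes called moved by over 1.5 times in these cases. On depletion (5) it was 11 with quantile normalization, 12 with median centring and 9 without the GC and length trend, and 2 to 19 when a library was left out. On overexpression (0) it was 0 to 4 when a library was left out and 0 with each alternative fixed at the start that kept all libraries. Between MYC and siControl (20) it was 7 to 23 when a library was left out. For the difference of effects (3) it was 7 with quantile normalization and with median centring, 8 with the trend removed and 2 to 15 when a library was left out.

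The median of the 45 genes relative to all genes tested was -0.0641 on depletion, -0.0428 with a minimum of 5 FPKM, and -0.0852 to -0.0336 when a library was left out. On overexpression it was 0.0095, 0.0043 without a minimum, 0.0162 with a minimum of 5 FPKM, 0.0174 with quantile normalization, 0.00059 with the trend removed, and 0.0049 to 0.0138 when a library was left out. Between MYC and siControl it was -0.0571, -0.0816 without a minimum, -0.0274 with the trend removed and -0.0672 to -0.0510 when a library was left out. PRIM2, called lower between MYC and siControl, turned to 0.11 with the trend removed (adjusted p = 0.353, limma). The cause was not tested beyond the settings themselves.

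A lone library left in a group was assumed to vary like the others. Of the libraries with the same number, deviations correlated at -0.13 on depletion, -0.57 on overexpression and 0.01 between controls, and nothing says that a number marks a shared culture. With the replicate block 5 replication genes were called on depletion, 0 on overexpression, 20 between controls and 2 for the difference. The shares over all genes in these fits were 19.1%, 1.28%, 44.3% and 10.4%. With the pairing crossed, an alternative chosen after seeing the data, 7 were called on depletion, 3 on overexpression and 9 for the difference, beside 22.9%, 9.26% and 23.8% of all genes. With 2 libraries a group and no read depth, small changes may go undetected.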
